A study of Mus musculus with 2 samples.

Results

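The p300 landscape around 9 sarcomere genes (Myl2, Myh6, Myh7, Actc1, Tnnt2, Tnni1, Ttn, Tpm1 and Actn2) was compared between heart and midbrain of the mouse embryo at embryonic day 11.5. The genes were represented by 7 fixed windows of the mouse build mm9, 2150 kb in all, and a peak belonged to a window when its midpoint lay inside. By this rule the windows held 22 of the 3597 heart peaks and 2 of the 2786 midbrain peaks. The windows were set by position and not by the reads, but every listed peak had been picked from the reads of its own library. p300 is a histone acetyltransferase and coactivator found at many active enhancers, and it was mapped by chromatin immunoprecipitation and sequencing.

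Both groups were embryos of CD-1, an outbred mouse stock, with males and females mixed and no genotype or treatment named in the labels, so that tissue was the only labelled difference. Each tissue gave 1 library, pooled from about 150 embryos, so no difference between them could be checked against replicates. There were 1303861 aligned heart reads and, 4.50 times as many, 5869671 aligned midbrain reads. Levels are given in rpm, the number of reads for every 1000000 aligned reads of a library, and 1 heart read was worth 0.767 rpm while 1 midbrain read was worth 0.170 rpm. How the heart was dissected is not described, as the protocol speaks of brain regions and limb. In pooled tissue, more cells with p300 at a site and more p300 per cell cannot be told apart. Ratios are heart over midbrain in rpm with exact 95% binomial intervals. They cover counting error only, and amplified reads that carry no molecular identifier may repeat 1 molecule.

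The sarcomere is the contractile unit of striated muscle, in which thick filaments of myosin slide along thin filaments of actin. Tropomyosin and the troponin complex on the thin filament make this movement depend on calcium, titin spans from the Z-disc to the M-line, and alpha-actinin anchors the thin filaments in the Z-disc. The embryonic heart already beats at this stage, and cardiac muscle genes of this kind are classical targets of the GATA, MEF2, SRF, NK2, T-box and TEAD families of transcription factors. Neural tissue does not build sarcomeres, but the midbrain library serves here as a comparison and not as a level free of p300. The midbrain list itself held 2 peaks in these windows.

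The letters of the promoters are shown first, since they give the regulatory sequence at the starts of these genes. All 9 genes matched the RefSeq promoter table (build GRCm38.p6) with 13 annotated starts, of which the 250 bases before each start were searched on both strands. These coordinates belong to GRCm38.p6 and are not to be set against the mm9 positions of the peaks. The 4 stretches below are those with a CArG box (the site of SRF), a MEF2 site, or both a GATA and a TEAD match. Capitals mark the matches to these 4 motifs, none of which overlap, while E-boxes are left in lower case, and each stretch is written 5′ to 3′ on the strand of the gene.
Actc1 promoter, chr2:114052876-114053125, GRCm38.p6, minus strand: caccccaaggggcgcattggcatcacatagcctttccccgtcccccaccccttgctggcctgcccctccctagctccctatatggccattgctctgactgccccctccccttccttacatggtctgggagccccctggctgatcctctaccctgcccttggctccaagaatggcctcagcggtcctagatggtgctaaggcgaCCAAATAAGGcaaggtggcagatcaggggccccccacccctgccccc
Ttn promoter, chr2:76982548-76982797, GRCm38.p6, minus strand: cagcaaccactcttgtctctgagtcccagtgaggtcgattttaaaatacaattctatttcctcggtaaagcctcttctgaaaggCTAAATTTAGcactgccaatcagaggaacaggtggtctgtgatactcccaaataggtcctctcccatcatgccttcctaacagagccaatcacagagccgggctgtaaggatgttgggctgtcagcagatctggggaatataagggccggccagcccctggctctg
Tnnt2 promoter, chr1:135836084-135836333, GRCm38.p6, plus strand: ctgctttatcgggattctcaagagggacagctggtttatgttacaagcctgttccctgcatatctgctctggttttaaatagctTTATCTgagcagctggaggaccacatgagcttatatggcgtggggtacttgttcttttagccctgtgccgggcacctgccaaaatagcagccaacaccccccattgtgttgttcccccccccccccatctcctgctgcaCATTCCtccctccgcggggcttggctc
Myh6 promoter, chr14:54966608-54966857, GRCm38.p6, minus strand: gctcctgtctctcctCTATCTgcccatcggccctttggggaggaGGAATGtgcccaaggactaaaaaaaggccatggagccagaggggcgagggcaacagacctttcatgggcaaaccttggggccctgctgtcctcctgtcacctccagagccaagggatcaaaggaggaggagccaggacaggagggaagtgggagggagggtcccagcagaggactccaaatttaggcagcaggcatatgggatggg

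Actc1, the cardiac alpha-actin of the thin filament, had the only CArG box among the 13 member promoters, and 1.47% of all 32851 promoters in the table had one. The MEF2 site in the promoter of Ttn, the gene of titin, was likewise the only one among the members, against 0.508% of all promoters. A GATA match (GATAA or GATAG after A or T) stood in 3 of the 13 stretches (23.1%), those of Tnnt2, Myh6 and Myl2, against 26.5% of all promoters. TEAD matches (GGAATG) stood in 4 of 13 (30.8%), in Tnnt2, Myh6, Myh7 and Tpm1, against 12.6% of all promoters. The NK2 site (CACTTAA or CACTTGA) and the T-box site (AGGTGTGA) had no match in these stretches, against 4.67% and 1.12% of all promoters. The short E-box (CANNTG) was present in 12 of 13, from 8 of the 9 genes, where 66.2% of all promoters had it. The stretches of Tnni1 overlap each other, as do those of Myh7, so the 13 are not all separate sequences. A match is a run of letters and not a measured site, and no listed peak could be placed relative to these starts.

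Other genes adjoin these loci. In the RefSeq gene order Myl2 stands between Cux2 and Ccdc63, Lad1 between Tnni1 and Tnnt2, and Ttn between Plekha3 and Ccdc141. Actc1 stands between Gjd2 and Aqr, Tpm1 between Lactb and Tln2, and Actn2 between Mtr and Heatr1, so a read or peak of a window is tied to the locus and not to 1 gene.

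Among the thick filament genes, Myl2 had the window with the most heart peaks of the 7. Myl2 encodes the regulatory myosin light chain of the ventricle, and its window on chromosome 5 from 122450001 to 122700000 held 7 heart peaks and no midbrain peak. Of all 250 kb tiles of the genome, 0.158% held 7 or more heart peaks, and 21.9% held at least 1. The leading Myl2 peak lay at 122542479 to 122544058, was 1580 bp wide and had rank 5 in the heart list. It held 23 heart reads and 2 midbrain reads, which is 17.6 rpm against 0.341 rpm, 51.8 times as much (interval 12.8 to 453). The other 6 Myl2 peaks held 4 to 9 heart reads and 0 to 2 midbrain reads, with ranks from 262 to 2712. The peak at 122544345 to 122544865 was less than 1 kb from the leading one. With such peaks joined, the 7 windows held 20 heart peaks in place of 22. Counted without joining, 0.336% of tiles held 6 or more heart peaks. Together the 7 peaks held 59 heart reads and 9 midbrain reads, a ratio of 29.5 (interval 14.5 to 67.7).

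Myh6 and Myh7 encode the alpha and beta myosin heavy chains of the heart and lie side by side, with the microRNA genes Mir208a and Mir208b beside them in the RefSeq gene order. Both heavy chains are close paralogues, and how the deposited alignment treated reads that match both is not given in the sources used here beyond the word unique in the name of the coverage track. Their window on chromosome 14 from 55450001 to 55700000 held 4 heart peaks and no midbrain peak, while 1.30% of the tiles held 4 or more heart peaks. The strongest lay at 55615605 to 55616347 with 10 heart reads and 2 midbrain reads, 7.67 rpm against 0.341 rpm (ratio 22.5, interval 4.80 to 211). Peaks at 55610023 to 55610541 and at 55612021 to 55612616 held 6 heart reads each and no midbrain read, which puts the lower bound of each ratio at 5.30. The peak at 55576471 to 55576881 stood apart from this group, with 5 heart reads and 1 midbrain read. All 4 peaks together gave 27 heart reads and 3 midbrain reads, a ratio of 40.5 (interval 12.5 to 209).

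Among the thin filament genes, Actc1 lay in a window on chromosome 2 from 113750001 to 114000000 with 4 heart peaks. A pair of peaks less than 1 kb apart centre to centre lay at 113874506 to 113875115, with 5 heart and 3 midbrain reads, and at 113875311 to 113876098, with 8 and 2 reads. A peak at 113883663 to 113884202 held 5 heart reads and 3 midbrain reads, and a more distant peak at 113948967 to 113949592 held 8 and 3. The pooled ratio of the Actc1 peaks was 10.6 (interval 5.08 to 23.9), on 26 heart reads and 11 midbrain reads.

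Tpm1 encodes alpha-tropomyosin, which lies along the actin filament, and its window spanned chromosome 9 from 66700001 to 67100000. Its strongest heart peak, at 66889534 to 66890321, held 10 heart reads and 6 midbrain reads (7.67 rpm against 1.02 rpm, ratio 7.50, interval 2.47 to 25.1). The next, at 66895028 to 66895411, held 6 heart reads and 5 midbrain reads, and its ratio of 5.40 (interval 1.37 to 22.4) was the smallest among the 17 sarcomere heart peaks with a midbrain read. These 2 peaks carried the most midbrain reads of the 22. The other Tpm1 peaks lay at 66849164 to 66849647, with 5 heart reads and no midbrain read, and at 66937797 to 66938460, with 6 and 1. All 5 heart reads of the former came from the plus strand.

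The troponin window, on chromosome 1 from 137600001 to 137900000, covers Tnnt2, the cardiac troponin T that ties the complex to tropomyosin, and Tnni1, the inhibitory subunit of slow muscle that the embryonic heart also uses. It held 2 heart peaks, neither in the better-ranked part of the list. Of the 250 kb tiles, which are shorter than this window, 7.91% held 2 or more. The peak at 137611705 to 137612186 held 5 heart reads and 1 midbrain read (rank 1849), and the one at 137684185 to 137684460 held 3 heart reads and 1 midbrain read (rank 2099). The latter had the fewest heart reads of the 22 and a lower bound of the ratio of 1.08, just above 1.

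The Z-disc and elastic filament genes had the fewest peaks. Actn2, the alpha-actinin of cardiac and skeletal Z-discs, lay in a window on chromosome 13 from 12300001 to 12500000 with 1 heart peak, at 12385980 to 12386704. That peak held 7 heart reads and 3 midbrain reads (5.37 rpm against 0.511 rpm, ratio 10.5, interval 2.40 to 63.0). The Ttn window, on chromosome 2 from 76450001 to 76950000, held no heart peak although it was the longest of the 7.

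**Figure D1:**
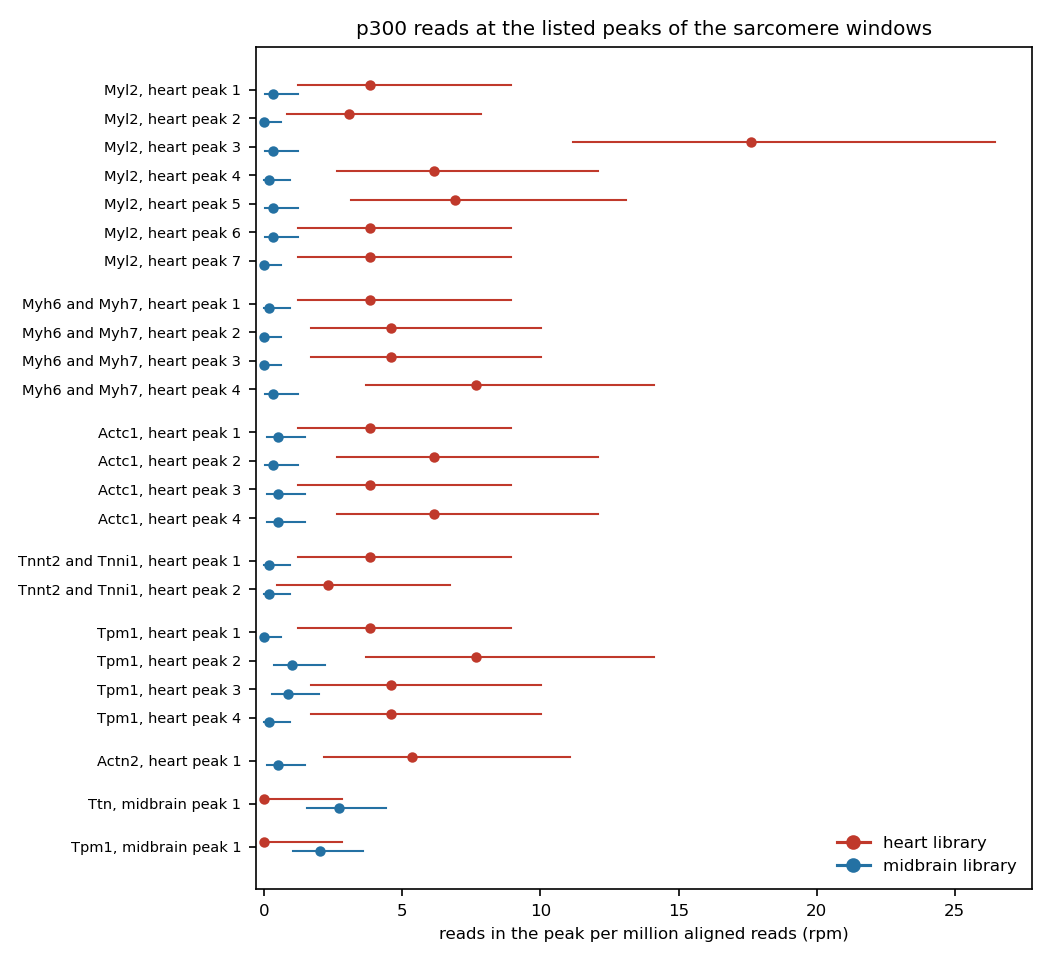
Level in rpm (linear axis) of the heart library (red) and the midbrain library (blue) at each of the 22 heart peaks and 2 midbrain peaks, numbered along the chromosome within a window. Points are the values of 1 library each and bars are exact 95% Poisson intervals of the count. Heart values run from 2.30 to 17.6 rpm at the heart peaks, where midbrain values stay between 0 and 1.02 rpm.

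Both listed midbrain peaks lacked heart reads, as did 1134 of all 2786 midbrain peaks. Of the 250 kb tiles, 17.8% held at least 1 midbrain peak. The one in the Ttn window, at 76903039 to 76903654, held 16 midbrain reads and no heart read, and the one in the Tpm1 window, at 66792489 to 66793092, held 12 midbrain reads and no heart read. For each of them the interval of the ratio included 1, so a difference was not detectable at this depth. Among all midbrain peaks the interval lay on the midbrain side for 21.5%. Over both peaks together, 28 midbrain reads stood against 0 heart reads, which puts the ratio below 0.634. Neither lay near another midbrain peak, the nearest being 712 kb and 1743 kb away. Of all midbrain peaks, 43.0% had another within 50 kb, and the median distance to the nearest was 84.7 kb.

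As a set, the 22 heart peaks held 154 heart reads and 40 midbrain reads, on average 5.37 rpm in a peak against 0.310 rpm, and the ratio was 17.3 (interval 12.2 to 25.2). For all 3597 heart peaks it was 7.95 (interval 7.78 to 8.13), and for the 3443 heart peaks that overlap no midbrain peak it was 9.34 (interval 9.12 to 9.56). The heart level of the set differed little from that of all heart peaks (4.87 rpm per peak), while its midbrain level was lower (0.310 against 0.613 rpm per peak). Without the Myl2 window the ratio was 13.8 (interval 9.11 to 21.4).

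Each of the 22 peaks on its own had an interval on the heart side, as 89.9% of all heart peaks did, so the share was near its background. When the midbrain library was thinned in 1 random draw to as many reads as the heart library, 11 of the 22 did, against 32.4% of all heart peaks at that depth. None of the 22 overlapped a midbrain peak, against 4.28% of all heart peaks, and none had one within 1 kb, against 5.50%. By an approximate limit that treats the peaks as independent, a count of 0 of 22 allows a share of up to 13.6%. No lower sharing was thus detectable, and the limit is too narrow where neighbouring peaks depend on each other.

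In the heart list the sarcomere peaks were not uniformly strong. Their median of 6 heart reads equalled that of all heart peaks, and their median width was 580 bp against 662 bp. Ranks ran from 5 to 2775 with a median of 1229.5, where the median of the whole list is 1799, and 6 of 22 (27.3%) stood among the first 500 (13.9% of the list). They lay close to one another: 18 of 22 (81.8%) had another heart peak within 50 kb, against 44.7% of all heart peaks, and the median distance to the nearest heart peak was 5.29 kb against 66.0 kb. Peaks of 1 window share a neighbourhood and are not independent of each other.

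The ground between the peaks also differed between the libraries. This measure left out every read within 1 kb of a listed peak of either list, and so was not used to list the peaks. Over the 7 windows it gave 2023 heart reads and 4906 midbrain reads, with densities of 72.2 and 38.9 rpm per 100 kb, and the ratio was 1.86 (interval 1.76 to 1.96). The median of all 10106 tiles of 250 kb was 0.920, with 95% of tiles at or below 1.59. In the 250 kb next to the windows on both sides the ratio was 1.32 (interval 1.26 to 1.38). Windows narrowed by 50 kb on each side gave 2.06, and windows widened by as much gave 1.75.

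The troponin window stood highest in this measure, although it held 2 heart peaks where the Myl2 window held 7. Outside its peaks it held 333 heart reads and 594 midbrain reads, 255 rpm against 101.2 rpm, a ratio of 2.52 (interval 2.20 to 2.89). Only 0.0396% of the 250 kb tiles reached that ratio, which is 4 tiles, and 3 of 8436 tiles of its own length did. The Myh6 and Myh7 window came next with 314 heart reads and 587 midbrain reads (ratio 2.41, interval 2.09 to 2.77), reached by 0.119% of tiles. Actn2 followed with 175 and 378 reads (ratio 2.08, interval 1.73 to 2.5), reached by 0.465%. The intervals of these 3 windows overlap, so their order is not settled by the counts.

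The Ttn window had no heart peak but a raised heart level along much of its length. It held 513 heart reads and 1323 midbrain reads outside peaks, a ratio of 1.75 (interval 1.57 to 1.93), reached by 2.34% of the 250 kb tiles and by 1.36% of tiles of its own length. Tpm1 gave 1.68 (interval 1.48 to 1.89), reached by 3.27% of the 250 kb tiles and by 2.58% of tiles of its own length. Myl2 gave 1.62 (interval 1.36 to 1.92, 4.27% of tiles). Actc1 was the exception, since its ratio of 1.18 had an interval that included 1 (0.971 to 1.42) and was reached by 24.6% of tiles. The interval thus lay on the heart side in 6 of 7 windows, against 22.8% of tiles, and in none on the midbrain side, against 35.1%. With the reads at peaks counted too, it did so in 7 of 7, against 24.0% of tiles.

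The ratio outside peaks also moved with the number of heart peaks across the genome. Its median was 0.838 in the 7893 tiles with no heart peak, 1.30 in the 491 tiles with 2 and 1.47 in the 131 tiles with 4 or more. These last tiles had quartiles of 1.28 and 1.83, and 95% of them lay at or below 2.18. Of the windows with as many peaks, Myl2 (1.62) and Tpm1 (1.68) lay between these quartiles. Actc1 (1.18) lay below both, and Myh6 and Myh7 (2.41) lay above 2.18. The Tpm1 window, at 400 kb, is longer than these tiles, so its number of peaks is not matched in length. Among tiles with at least 1 heart peak, the troponin ratio was reached by 0.136%, the Myh6 and Myh7 ratio by 0.497%, and the Myl2 ratio by 13%. The Actc1 ratio was reached by 56.0% of them and so lay below their median, although its window held 4 heart peaks. Beside Myl2 the adjacent 250 kb were about as high as the window itself, at 1.57 and 1.91. Beside Actn2 1 of the stretches, at 1.99, lay within the interval of the window and the other was at 1.10. The ratio of the window exceeded that of both adjacent stretches in 6 of 7 windows, Actn2 included and Myl2 not. How often tiles of the genome exceed both their neighbours was not counted, so this number has no background.

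**Figure D2:**
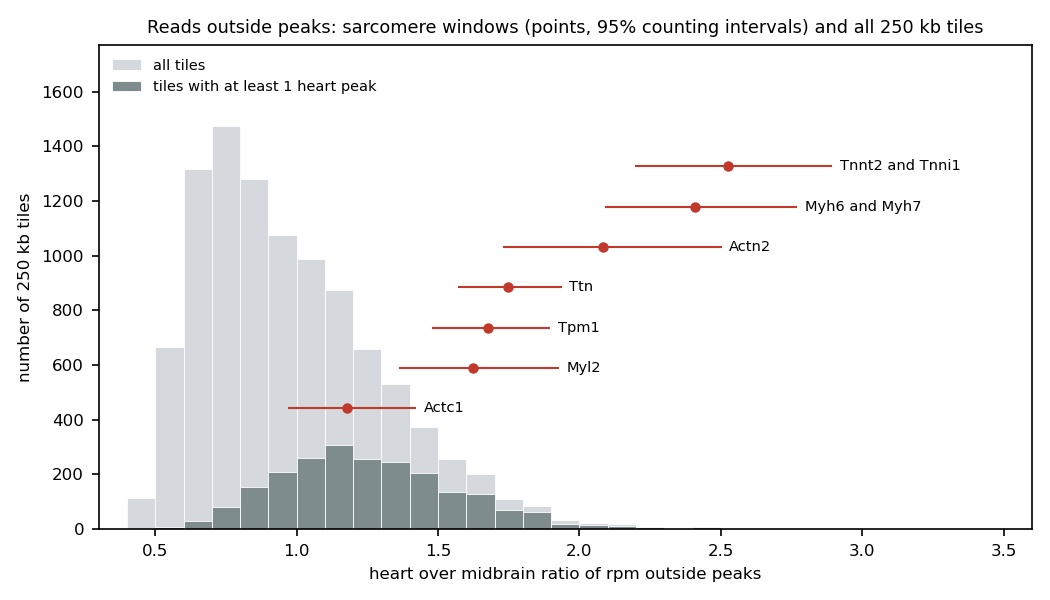
Number of 250 kb tiles (vertical axis) by heart over midbrain ratio of rpm outside peaks (horizontal axis, from 0.3), for all tiles in light grey and for tiles with at least 1 heart peak in dark grey. The 1 tile with a ratio of 3 or more, which holds no heart peak, is not drawn. Red points are the 7 sarcomere windows with their 95% counting intervals, at heights that carry no value. The troponin window at 2.52 and the myosin heavy chain window at 2.41 lie in the sparse upper end of the tiles, while Actc1 at 1.18 lies among them.

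The excess was then placed within each window in bins of 10 kb, again outside peaks. Of the 210 bins of the 7 windows, 56 (26.7%) had an interval on the heart side, against 4.32% of all 239748 bins, and none had one on the midbrain side, against 2.49%. The troponin window had 14 such bins of 30 and the Myh6 and Myh7 window 11 of 25. Ttn had 13 of 50, Tpm1 8 of 40, Actn2 6 of 20, Myl2 2 of 23 and Actc1 2 of 22. The shares at Myl2 and Actc1 (8.70% and 9.09%) were thus the lowest of the 7. The 13 bins at Ttn all lay between 76540001 and 76860000, so neither end of that window had one.

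The bins and stretches named here were picked from their values, by the highest lower bound in each window and the longest unbroken series on the heart side. When all bins of the genome were ordered by the lower bound of the ratio, 3 of the first 10 and 9 of the first 100 lay in these windows, which hold 0.0876% of all bins. The leading bin of the Myh6 and Myh7 window, at 55580001 to 55590000 on chromosome 14, took place 3 with 34 heart reads and 7 midbrain reads (26.1 rpm against 1.19 rpm, ratio 21.9, interval 9.54 to 58.4). Both sides contributed, as 0.0229% of all bins had as many heart reads and 0.337% as few midbrain reads. The heart reads there came from both strands, 19 plus and 15 minus, and none lay within 3 kb of a listed peak. Around it, 6 bins in a row from 55550001 to 55610000 were on the heart side, with 129 heart reads and 82 midbrain reads (ratio 7.08, interval 5.33 to 9.46).

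In the troponin window the leading bin, at 137690001 to 137700000 on chromosome 1, held 30 heart reads and 20 midbrain reads (23.0 rpm against 3.41 rpm, ratio 6.75, interval 3.71 to 12.5) and took place 26. Its midbrain count was close to the genome's median of 23 reads per bin, while the median heart count is 5. A separate series of 5 bins from 137620001 to 137670000 held 83 heart reads and 118 midbrain reads (ratio 3.17, interval 2.36 to 4.23).

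The leading Myl2 bin took place 4, at 122550001 to 122560000 on chromosome 5, with 22 heart reads and 5 midbrain reads over the 4.18 kb that remained after its listed peaks and 1 kb around them were left out (ratio 19.8, interval 7.32 to 67.0). All of it lies within 3 kb of a listed peak, so nothing was left when that wider margin was removed. The Actc1 bin at 113870001 to 113880000 took place 8 with 25 heart reads and 12 midbrain reads (ratio 9.38, interval 4.54 to 20.5). Beyond 3 kb from its peaks, 5 heart reads and 7 midbrain reads remained, and the interval then included 1 (0.805 to 11.8). Each of these windows had a second bin on the heart side. At Myl2 it lay at 122580001 to 122590000, with 20 heart reads and 17 midbrain reads (ratio 5.30, interval 2.64 to 10.8), and a 500 bp stretch within it with 6 heart reads and 1 midbrain read lay 25.9 kb from the nearest heart peak. At Actc1 it lay at 113950001 to 113960000, with 12 heart reads and 16 midbrain reads (ratio 3.38, interval 1.46 to 7.61).

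Ttn, Tpm1 and Actn2 had lower leading bins. At Ttn it held 18 heart reads and 25 midbrain reads (ratio 3.24, interval 1.67 to 6.18). At Tpm1 the values were 19 and 22 reads (ratio 3.89, interval 1.99 to 7.53), in a series of 3 bins from 66870001 to 66900000 that also contains the strongest Tpm1 peaks. At Actn2 they were 17 and 15 reads (ratio 5.10, interval 2.40 to 11). The median Ttn bin held 10 heart reads and 25.5 midbrain reads, compared with 5 and 23 over the genome.

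**Figure D3:**
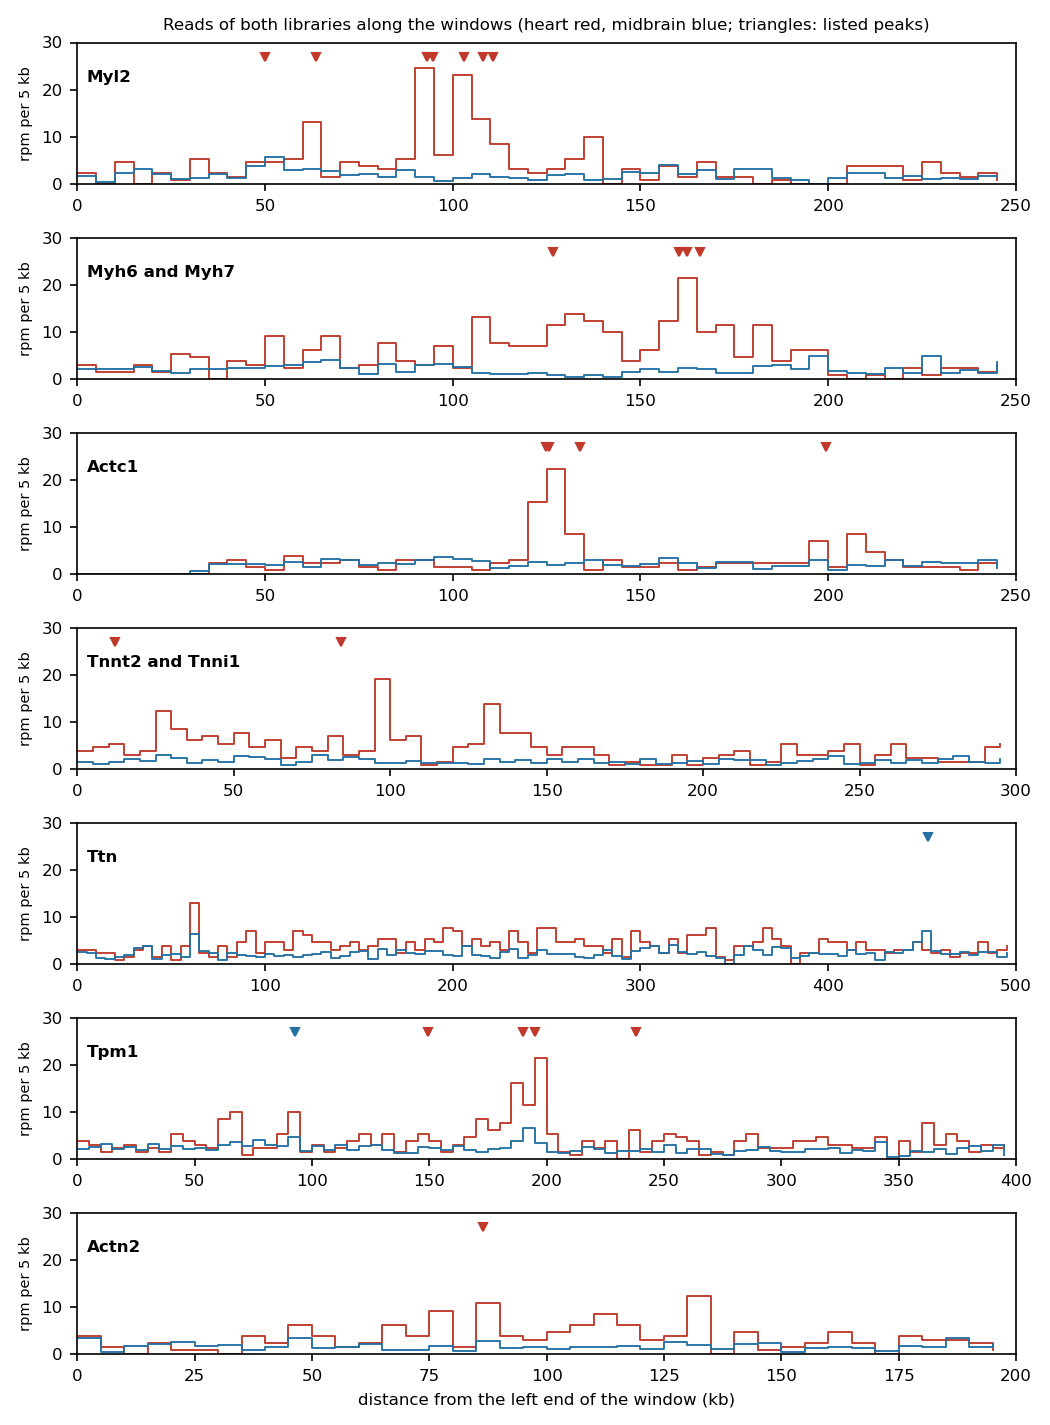
Level in 5 kb bins (vertical axis, rpm, all reads) of the heart library (red) and the midbrain library (blue) along each window (horizontal axis, kb from its left end), with triangles at the centres of listed heart (red) and midbrain (blue) peaks. Heart reads form summits at Actc1, Myl2 and Tpm1. They form broad raised stretches, with summits of their own, at Myh6 and Myh7 and at Tnnt2 and Tnni1. Along most of Ttn they form a low raised level. The first bins of the Actc1 window hold no read of either library.

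The reads outside peaks were also ordered by their distance from the nearest heart peak. At 1 to 3 kb from a sarcomere heart peak the heart library had 143 rpm per 100 kb and the midbrain library 41.8, a ratio of 3.42 (interval 2.69 to 4.35). From 3 to 10 kb the ratio was 2.59 (interval 2.19 to 3.06), from 10 to 30 kb 2.27 (interval 2.02 to 2.55), and from 30 to 100 kb 1.5 (interval 1.37 to 1.64). Around all heart peaks the corresponding ratios were 1.67, 1.42, 1.31 and 1.21, each below the interval of the sarcomere peaks. The midbrain level near sarcomere peaks was nearly flat over these distances, between 37.1 and 41.8 rpm per 100 kb.

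**Figure D4:**
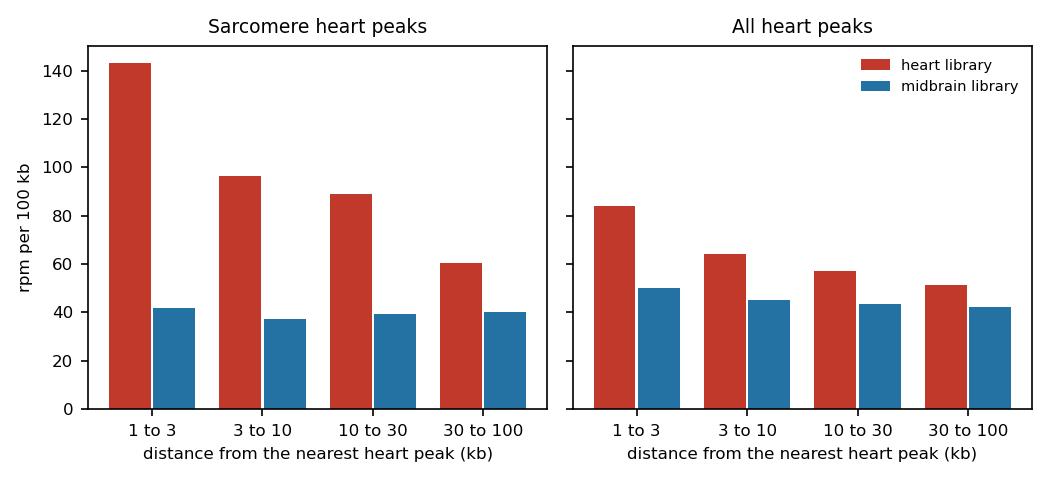
Density in rpm per 100 kb (vertical axis, from 0) in 4 bands of distance from the nearest heart peak (horizontal axis, kb), for the 22 sarcomere heart peaks (left) and all 3597 heart peaks (right), with heart in red and midbrain in blue. Each bar is 1 library without replicate. Heart reads fall from 143 to 60.6 rpm per 100 kb around the sarcomere peaks and from 84.1 to 51.3 around all heart peaks.

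The sarcomere heart peaks stood out less from their flanks than heart peaks did in general. Heart reads were 6.26 times as dense in the sarcomere peaks as 5 to 10 kb away (interval 5.16 to 7.57), against 10.5 times (interval 10.3 to 10.7) at all heart peaks. The density inside was no lower, at 8.68 rpm per kb against 7.10, but that in the flanks was 1.39 rpm per kb against 0.674. With flanks 10 to 20 kb away the values lay closer together, at 8.91 times (interval 7.41 to 10.7) for the sarcomere peaks and 11.2 times (interval 11.02 to 11.36) for all heart peaks. Midbrain reads were 1.34 times as dense in the sarcomere heart peaks as in their flanks, with an interval that included 1 (0.943 to 1.85), and 1.94 times (interval 1.90 to 1.97) at all heart peaks.

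Small groups of heart reads outside the list were also frequent in these windows. Bins of 500 bp with at least 4 heart reads and no listed peak within 1 kb numbered 31 in the windows, 14.4 per Mb, against 2.29 per Mb over chromosomes 1 to 19 and X. The Myh6 and Myh7 window had 9 of them (36 per Mb) and the troponin window 6 (20 per Mb). The fullest, at 137697001 to 137697500 in the troponin window, held 9 heart reads and no midbrain read and reached a deposited coverage of 6 lengthened reads. This is more heart reads than 18 of the 22 listed peaks held, and it lay 12.5 kb from the nearest of them. Why it was not listed could not be told, since the thresholds of the peak calling are not given in the sources used here. In the Ttn window 4 such bins were found, the fullest with 6 heart reads and 6 midbrain reads at 76511001 to 76511500, and another with 5 heart reads and no midbrain read at 76646501 to 76647000.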

How the data were processed

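Per the labels' protocols, gel purification kept p300-bound DNA of 300 to 500 bp, from which 36 bp were read. The authors deposited aligned reads (1 line per read, lengthened to 300 bp), a peak list with ranks only, and a coverage track (signal, whole numbers of lengthened reads at 25 bp steps, not scaled to library size), on mm9 per the submitters' processing notes. Per the file headers, the heart track name contains the word blat. Which aligner made the midbrain file, how peaks were called and whether a control was used is not given in the sources used here.

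Reads were counted at the 5 prime end moved by 23 bp (heart) or 39 bp (midbrain), from strand offsets of 46 and 79 bp searched between 46 and 500 bp. The heart value lies at the limit of the search, so the shift is not a measured fragment length. Reads were scaled to all aligned reads. Tiles needed 50 midbrain reads and bins of 10 kb needed 10 reads, summed over both libraries. Each tissue has 1 library, so no test between tissues and no p-value is given. The interval code was tested on simulated data. Software was scipy 1.17.1, pandas 2.3.3, numpy 2.4.6 and matplotlib 3.10.9 under Python 3.11.15. The members, lists and measures were chosen with earlier results of these data known. The naming rule took all midbrain peaks, the heart peak with the most heart reads per window, and all heart peaks of windows with 5 or fewer. No genome or annotation of mm9 was used, so peak sequences, distances to genes and the other sarcomere genes that had been planned were not analysed here, and the motif search was run on promoters in place of peaks. That each gene lies in its window was taken from the rule.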

Additional observations from a re-analysis of the deposited data

How the results depend on the processing

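Of 49 alternatives 9 moved a value beyond its interval, or a count by more than 1.5 times, and none turned a direction. When the midbrain library was thinned to as many reads as the heart library, the ratio at the sarcomere heart peaks was 25.7 (interval 11.5 to 71.0) and 11 of 22 peaks kept theirs on the heart side, against 32.4% of all heart peaks, a share added after the data had been seen. Keeping 50% of each list by rank left 12 heart peaks, all 12 on the heart side, and 1 midbrain peak. Windows narrowed by 50 kb on each side held 1 midbrain peak and gave a ratio outside peaks of 2.06, and windows widened by 50 kb gave 1.75. Flanks 10 to 20 kb away raised the heart density in peaks over flanks to 8.91, and to 11.2 at all heart peaks. The cause of these shifts was not tested, other than that thinning and the shorter lists leave fewer reads or peaks. Leaving out 1 window at a time gave peak ratios from 13.8 (without the Myl2 window) to 20.4 (without the Tpm1 window). For reads outside peaks this was added after the data had been seen, and gave ratios from 1.76 (without the Tnnt2 and Tnni1 window) to 1.94 (without the Actc1 window). No paired analysis was possible because each tissue has 1 library and no result comes from a test. Depth limits the single peaks, since 1 heart read is worth 0.767 rpm.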
